A study of Mus musculus with 31 samples.

Results

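The genes described here encode the subunits of the machinery of oxidative phosphorylation, measured in the hippocampus of Glud1 transgenic (Tg) and wild type (wt) mice over 5 ages. They were taken from the symbols listed for the probe sets of the Affymetrix Mouse Genome 430 2.0 array: Nduf genes of the a, b, c, s and v series, Sdha to Sdhd, Uqcr genes, Cyc1, Cycs, Cox4 to Cox8 genes and Atp5 genes. The rule used names and no measured value. It took 184 of the 45037 mouse probe sets, for 92 of the 18193 genes with a probe set of their own, and 10 more probe sets that are listed for a member together with another gene were not used. Of the 92 genes, 89 had a signal above the median of the array on at least 3 arrays and were tested among 12844 genes. Cox4i2, Cox7b2 and Ndufb4 were above it on 1, 0 and 0 arrays and were left out of the counts. The name rule also takes Ndufaf1 to Ndufaf8, which assemble complex I and are no part of it.

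Oxidative phosphorylation takes place in the inner mitochondrial membrane. Complexes I and II pass electrons from NADH and succinate to ubiquinone, complex III hands them to cytochrome c, and complex IV, cytochrome c oxidase, passes them to oxygen. Complexes I, III and IV pump protons as they do so, and ATP synthase lets the protons flow back through its membrane part, Fo, to make ATP in its catalytic part, F1. The genes below lie in the nucleus, while a small number of core subunits of complexes I, III and IV and of Fo are encoded by mitochondrial DNA and belong to none of the symbols used. Neurons rely on this pathway for the ATP that ion pumping and synaptic transmission consume.

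Total RNA of the homogenized hippocampus of 31 male mice was hybridized, 1 mouse to an array. Glud1 Tg mice over-express the gene for glutamate dehydrogenase 1, an enzyme of the mitochondrial matrix, in neurons of the central nervous system, and the sources used here do not name the promoter. Tg mice were 10 days, 4.5, 9, 14.5 or 20 months old, with 3 mice at each age, and wt mice of the same C57BL/6 background had the same ages, with 4 mice at 10 days and 3 at each of the others. The study asked how the hippocampal transcriptome differs between the genotypes and how it changes in development and in aging.

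Markers of the hippocampus (Prox1, Wfs1, Zbtb20, Neurod6 and Fibcd1) summed to a signal between 10989 and 16349 on every array, while markers of the choroid plexus, a tissue next to the hippocampus, ran from 644 to 46405 among mice. No deposited value was at or below 0, so none of the markers stood at 0. Arrays of a group correlated at 0.934 or more, and the few mice in a group limit how exact a value can be. All signals below are log2 of the deposited linear signal, quantile normalized over the arrays, on which a difference of 1 is a doubling. The 89 genes were bright: 80 lay above the median of all genes tested and 69 above their 90th percentile. At the dim end, 9 had a mean under 9 on this scale, and whether such signals exceed the background of the array could not be tested.

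Most subunit genes stood at their lowest level of the 5 ages at 4.5 months. The mean over mice was lowest at 4.5 months for 47 of the 89 genes (52.8%), against 18.8% of all genes tested. The highest mean lay at 10 days for 34 members (38.2%, against 36.6% of all genes) and at 9 months for 30 members (33.7%, against 15.5%). As one number for each mouse, the median over the 89 genes of the difference from each gene's own mean had a lowest, median and highest value of 0.03, 0.07 and 0.12 at 10 days, -0.18, -0.12 and -0.07 at 4.5 months, 0.02, 0.09 and 0.15 at 9 months, -0.14, -0.04 and -0.02 at 14.5 months, and 0.02, 0.05 and 0.11 at 20 months. The mice of 4.5 months lay below all mice of 10 days, of 9 months and of 20 months, and overlapped those of 14.5 months. The same median over all genes tested stayed between -0.06 and 0.06. Quantile normalization holds that median near 0, so it is no measure of a change common to all genes. In homogenized tissue, fewer cells of a type and less RNA in each cell cannot be told apart.

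**Figure D1:**
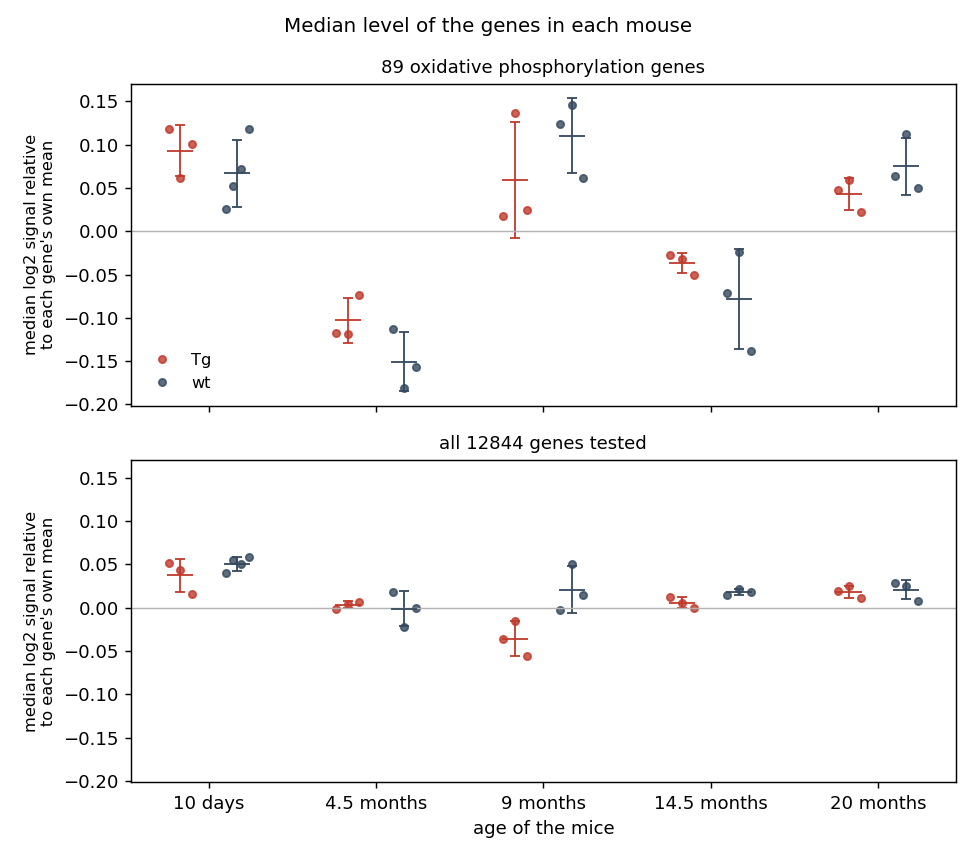
Each point is 1 mouse, with age along the x axis and, on the y axis, the median over genes of the log2 signal relative to each gene's own mean, for the 89 oxidative phosphorylation genes (top) and for all 12844 genes tested (bottom). Bars are the group mean and SD, with Tg left of wt at each age. The subunit genes lie between -0.18 and -0.07 at 4.5 months and between 0.02 and 0.15 at 9 months. All genes lie between -0.06 and 0.06 throughout, a median that quantile normalization holds near 0.

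Over both genotypes, 12 members were higher and 52 lower at 4.5 months than at 10 days (limma, adjusted p under 0.05 over all probe sets tested), where 31.2% of all genes were higher and 35.5% lower. The median log2 fold change was -0.23 over the members and -0.04 over all genes. Without quantile normalization the split was 6 higher and 67 lower (36.1% and 31.7% of all genes), with a median of -0.36 against 0.05 over all genes. In 42 of the 89 genes every mouse of 4.5 months lay below every mouse of 10 days (2962 of all 12844 genes). In 4 every mouse lay above (2582 of all 12844 genes).

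From there the direction alternated with each step of age. At 9 against 4.5 months 56 members were higher and 10 lower (20.6% and 24.3% of all genes), with a median of 0.24 against -0.03 over all genes. At 14.5 against 9 months 15 were higher and 50 lower (26.3% and 21.9% of all genes), with a median of -0.13 against 0.06. Without quantile normalization that step had 4 higher and 64 lower (25.4% and 20.3% of all genes), with a median of -0.31 against 0.04. At 20 against 14.5 months 36 were higher and 5 lower (18.3% and 15.3% of all genes), with a median of 0.10 against 0.02, and without quantile normalization 61 were higher and 3 lower (16.7% and 17% of all genes), with a median of 0.24 against 0.01. Over the whole of aging, 20 against 4.5 months, 47 were higher and 7 lower (22.4% and 19.9% of all genes), with a median of 0.16 against 0.03. The mice of these ages did not overlap in 37 of the members that lay higher and 5 that lay lower (1515 and 1565 of all 12844 genes). These comparisons share arrays, so that a low level at 4.5 months enters both the fall in development and the rise in aging.

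Because of this, the same ages were set against 9 months as well, a choice made after the data were seen. At 9 months against 10 days, 31 members were higher and 31 lower (29.7% and 37.5% of all genes), with a median of -0.01 against -0.07 over all genes. At 20 against 9 months 14 were higher and 21 lower (21.7% and 17.9% of all genes), with a median of -0.02 against 0.04. At 14.5 against 4.5 months, without the arrays of 9 months, 40 were higher and 14 lower (14.9% and 16.6% of all genes), with a median of 0.10 against 0.01. A majority of members lower than at 10 days, or higher at 20 months, was found with the mice of 4.5 months and not with those of 9 months.

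The RNA of these ages also differed in the control probe sets of the array. The log2 ratio of the 3′ to the 5′ probe set of Gapdh, which rises as RNA is shorter or degraded, averaged -0.017 at 4.5 months and -0.362 at 10 days (6 and 7 mice, exact permutation test, two-sided p = 0.00117, adjusted p = 0.00649). At 9 months it averaged -0.315, and the mice of 4.5 months, between -0.078 and 0.018, lay above those of every other age. The same ratio for beta-actin averaged 0.418 at 4.5 months and 0.403 at 10 days (exact permutation test, two-sided p = 0.429, adjusted p = 0.613), and 0.805 at 9 months and 0.418 at 4.5 months (6 mice each, exact permutation test, two-sided p = 0.00216, adjusted p = 0.00649). The beta-actin ratio then averaged 0.366 at 14.5 months and 0.527 at 20 months. Both the step from 9 months and that from 14.5 months passed (6 mice each, exact permutation tests, two-sided p = 0.00216, adjusted p = 0.00649). From 4.5 months on, the ages with the higher beta-actin ratio, 9 and 20 months, were those with the higher median of the subunit genes. The part of these ratios in the levels of the subunit genes was not tested.

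Cell type markers moved over the same ages. The summed signal of 8 neuronal markers ran from 106578 to 115867 at 4.5 months and from 75955 to 86815 at 10 days (6 higher, 1 lower), and that of the oligodendrocyte markers from 48788 to 65114 at 4.5 months and from 5778 to 11573 at 10 days (5 of 5 tested were higher). At 9 months the neuronal sum was 87407 to 98018, with 6 of the 8 lower than at 4.5 months and none higher, and at 14.5 months it was 105505 to 114794, with 6 higher and 2 lower than at 9 months. The summed signal of 6 astrocyte markers was 41226 to 46623 at 10 days, 50424 to 58255 at 4.5 months, 44880 to 48867 at 9 months, 52235 to 55725 at 14.5 months and 46871 to 50860 at 20 months, with 3 of the 6 higher and 3 lower in development. The ages with the higher neuronal and astrocyte sums, 4.5 and 14.5 months, were those with the lower median of the subunit genes. The sum of 2 markers of parvalbumin interneurons was 3442 to 4122 at 4.5 months and lay between 426 and 3009 at the other ages, with no overlap. Both markers were higher in development, but after 4.5 months they parted. At 9 against 4.5 months 1 was higher and 1 lower, and the same held at 20 against 4.5 months. At 20 months the neuronal sum was 94973 to 99775, with 3 of the 8 markers lower than at 4.5 months, and 4 of 6 microglial markers were higher. The part of these shifts in the subunit genes was not tested.

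**Figure D2:**
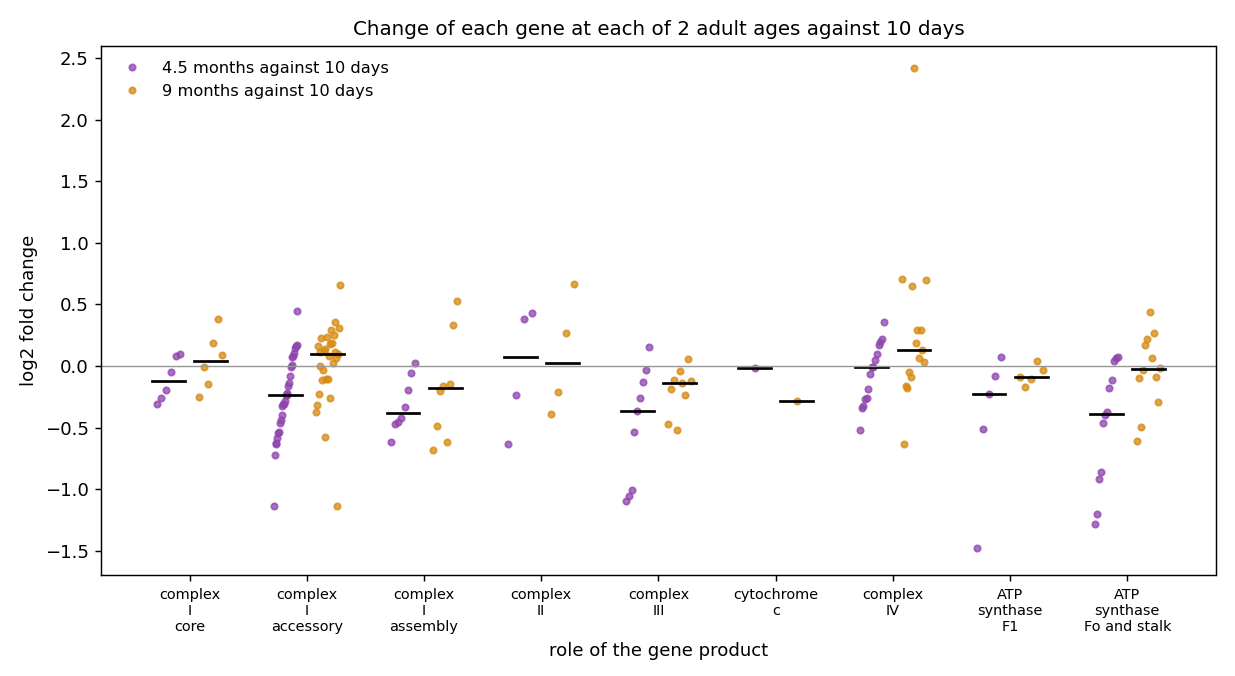
Each point is 1 of the 89 genes and shows its log2 fold change (y axis) at 4.5 months against 10 days (purple) and at 9 months against 10 days (orange), by the role of its product (x axis), with black bars for the median of a role. Both comparisons use the same 10-day arrays. Atp5e lies at -1.48 in the first comparison and at -0.09 in the second, and the median of all members at -0.23 and -0.01.

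For the counts by role below, the shares over all genes are 31.2% higher and 35.5% lower in development, and 22.4% and 19.9% in aging. Among the 5 genes of F1, 3 were lower at 4.5 months than at 10 days and 2 were higher at 20 than at 4.5 months. Atp5e encodes the epsilon subunit, the smallest of the central stalk. Its lowest, median and highest signals were 12.10, 12.27 and 12.34 at 10 days, 10.53, 10.77 and 10.82 at 4.5 months, 11.92, 12.08 and 12.34 at 9 months, 11.54, 11.77 and 11.82 at 14.5 months, and 11.80, 11.83 and 11.94 at 20 months. All 6 mice of 4.5 months lay below all mice of the other ages. Its log2 fold change was -1.48 ± 0.054 (SE; adjusted p = 7.38e-20) at 4.5 months against 10 days, 1.39 ± 0.056 at 9 against 4.5 months and 1.12 ± 0.056 (SE; adjusted p = 1.05e-15) at 20 against 4.5 months. In the deposited linear signal the mean was 1696 ± 124 at 4.5 months and 5097 ± 367 at 10 days (SD, n = 6 and 7). At 9 months against 10 days the fold change was -0.09, and the mice of these ages overlapped.

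The other F1 genes moved less. Atp5c1, the gamma subunit that turns within the catalytic ring, was lower at 4.5 months than at 10 days (-0.52 ± 0.037) and higher at 20 than at 4.5 months by 0.36 ± 0.039. Atp5d, the delta subunit of the central stalk, had -0.23 ± 0.039 in development and 0.02, not called, in aging. Atp5b, the beta subunit that holds the catalytic sites, had 0.07 ± 0.039 (adjusted p = 0.109) in development, and Atp5a1, its alpha partner, -0.08 ± 0.045 (adjusted p = 0.133). Without quantile normalization Atp5a1 was lower in development, at -0.33. The other 3 genes, which encode the central stalk, were all lower at the probe set shown. The other probe set of Atp5c1, which was dim, gave 1.0 in development.

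Of the 12 genes of Fo and the outer stalk, 7 were lower and none higher at 4.5 months than at 10 days, and 9 were higher and none lower at 20 than at 4.5 months. Atp5l encodes subunit g, which lies where the synthase forms dimers. Its signals were 12.85, 12.95 and 12.98 at 10 days, 11.90, 12.07 and 12.21 at 4.5 months, 12.77, 12.91 and 12.99 at 9 months, 12.55, 12.66 and 12.74 at 14.5 months, and 12.73, 12.76 and 12.85 at 20 months. Again the mice of 4.5 months lay below all others. The fold change was -0.86 ± 0.049 (SE; adjusted p = 2.37e-15) in development and 0.72 ± 0.051 (SE; adjusted p = 2.05e-12) in aging. Atp5mpl, a small proteolipid bound to the synthase, had -1.20 ± 0.057 and 1.01 ± 0.059 in the same comparisons, and -0.09 at 9 months against 10 days.

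Atp5g1, Atp5g2 and Atp5g3 encode the c subunit, whose copies form the ring that protons turn, and their mature proteins are the same. Atp5g1 had the largest fall of the 3 in development at -1.29 ± 0.064 (SE; adjusted p = 9.28e-17), against -0.47 ± 0.053 for Atp5g2 and 0.04 ± 0.031 (adjusted p = 0.237) for Atp5g3. Within each mouse, the log2 signal of Atp5g1 minus that of Atp5g3 shifted by -1.33 (exact p = 5.83e-04, adjusted p = 0.00321) at 4.5 months against 10 days, over 6 and 7 mice, and by 0.69 (exact p = 0.00216, adjusted p = 0.00529) at 20 against 4.5 months. These values rest on 1 probe set of Atp5g1, and its other, which was dim, gave 0.70 in development and was called. At 9 months against 10 days Atp5g1 was still lower (-0.61). Atp5o, the subunit that links the outer stalk to F1, was also lower at both adult ages, with -0.92 ± 0.049 at 4.5 months and -0.50 at 9 months against 10 days. Atp5pb, subunit b of the outer stalk, was not called in development (0.06 ± 0.048, adjusted p = 0.263).

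Of 9 genes of complex III, 1 was higher and 7 lower at 4.5 months than at 10 days, and 6 were higher and 1 lower at 20 than at 4.5 months. At the probe sets shown, the largest changes belonged to Uqcr11, Uqcrq and Uqcr10, small subunits that carry no redox group. Uqcr11 had signals of 12.43, 12.60 and 12.72 at 10 days, 11.39, 11.56 and 11.62 at 4.5 months, 12.33, 12.42 and 12.51 at 9 months, 12.06, 12.19 and 12.31 at 14.5 months, and 12.23, 12.30 and 12.39 at 20 months. The mice of 4.5 months lay below those of every other age, and the mice of 10 days and of 9 months overlapped. Its fold change was -1.06 ± 0.048 (SE; adjusted p = 8.68e-18) in development and 0.76 ± 0.049 (SE; adjusted p = 2.64e-13) in aging. Uqcrq, known as a ubiquinone-binding protein, had -1.10 ± 0.059 and 0.60 ± 0.061, and Uqcr10 had -1.01 ± 0.064 and 0.75 ± 0.066. Other probe sets of Uqcr10 rose in development. At 9 months against 10 days Uqcr11, Uqcrq and Uqcr10 had -0.19, -0.47 and -0.11.

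Uqcrfs1 and Cyc1, which carry the electrons of complex III, moved less than Uqcr11, Uqcrq and Uqcr10 in development and in aging. Uqcrfs1, the Rieske iron-sulfur protein, had -0.54 ± 0.047 at 4.5 months and -0.52 at 9 months against 10 days, and 0.15 ± 0.048 in aging. Cyc1, cytochrome c1, had -0.26 ± 0.055 in development and 0.25 ± 0.057 in aging. Uqcrc2, a core protein of the matrix side, was the gene that was higher in development, at 0.16 ± 0.059, and had 0.01 without quantile normalization. Uqcrb was not called in development (-0.03, adjusted p = 0.462) and was lower in aging (-0.15 ± 0.037), which was not called without quantile normalization (-0.11). Its other probe set gave 0.71 in aging and was called, and the median over both was 0.28. Cycs, the electron carrier cytochrome c, was called in neither comparison (-0.02 ± 0.051 and -0.05 ± 0.053, adjusted p = 0.814 and 0.48), and was lower at 9 than at 4.5 months (-0.27 ± 0.053). Without quantile normalization Cycs was lower in development, at -0.24, and not called at 9 against 4.5 months.

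Complex I was covered by 6 core subunits, 29 accessory subunits and 8 assembly factors. By their names, Ndufa4 and its relative Ndufa4l2 are counted among the accessory subunits, though Ndufa4 is now placed with complex IV. The core subunits, which bind NADH and the iron-sulfur clusters, had 1 higher and 3 lower at 4.5 months than at 10 days and 3 higher and none lower in aging. Ndufs8, an iron-sulfur subunit, had -0.31 ± 0.097 (SE; adjusted p = 0.00737) in development and, in aging, 0.23 (adjusted p = 0.075). Ndufv1, which binds FMN and NADH, was higher in development by 0.10 ± 0.041, a call that was lost without quantile normalization (-0.040). Ndufs1, the largest subunit, was not called in development (-0.05 ± 0.049, adjusted p = 0.388) but was higher in aging by 0.25 ± 0.051.

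The accessory subunits, which surround and stabilize the core, had 5 higher and 19 lower in development, 22 higher and 2 lower at 9 against 4.5 months, 2 higher and 19 lower at 14.5 against 9 months, 14 higher and 1 lower at 20 against 14.5 months, and 17 higher and 4 lower in aging. Ndufs4 lies in the arm that takes up NADH, and its loss causes a mitochondrial encephalopathy in mice. Its signals were 11.30, 11.40 and 11.54 at 10 days, 10.20, 10.25 and 10.41 at 4.5 months, 10.86, 11.03 and 11.19 at 9 months, 10.72, 10.81 and 10.83 at 14.5 months, and 10.91, 11.01 and 11.06 at 20 months. Every mouse of 4.5 months lay below every mouse of the other ages, and every mouse of 10 days above them. The fold change was -1.14 ± 0.055 (SE; adjusted p = 4.01e-17) in development, 0.72 ± 0.056 (SE; adjusted p = 1.76e-11) in aging and -0.38 at 9 months against 10 days. Its other probe sets that were tested gave 0.56 and -0.50 in development, so that its probe sets disagreed in direction.

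Ndufb7 and Ndufs5, both on the intermembrane side of complex I, followed the alternating pattern. Ndufb7 had -0.64 ± 0.061 at 4.5 months against 10 days, 0.80 ± 0.064 at 9 against 4.5 months, -0.70 ± 0.064 at 14.5 against 9 months and 0.39 ± 0.064 at 20 against 14.5 months. Ndufs5 had -0.54, 0.77, -0.31 and 0.14 in these steps, each called. Ndufa13, which is also known as GRIM-19 for a role in cell death, went the other way in development, at 0.45 ± 0.057 (SE; adjusted p = 5.77e-08), and was lower in aging (-0.33 ± 0.058). Ndufa10 shared this direction, with 0.16 ± 0.047 in development, which was lost without quantile normalization, and -0.30 ± 0.048 in aging.

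The Ndufaf genes, whose products assemble complex I, had none higher and 6 lower of 8 in development and 2 higher and none lower in aging. Ndufaf6 had -0.62 ± 0.114 in development and 0.66 ± 0.118 at 14.5 against 9 months. Ndufaf7, a methyltransferase, had -0.43 ± 0.072 in development and 0.23 ± 0.074 in aging. Ndufaf8 was not called in development (0.02, adjusted p = 0.735).

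**Figure D3:**
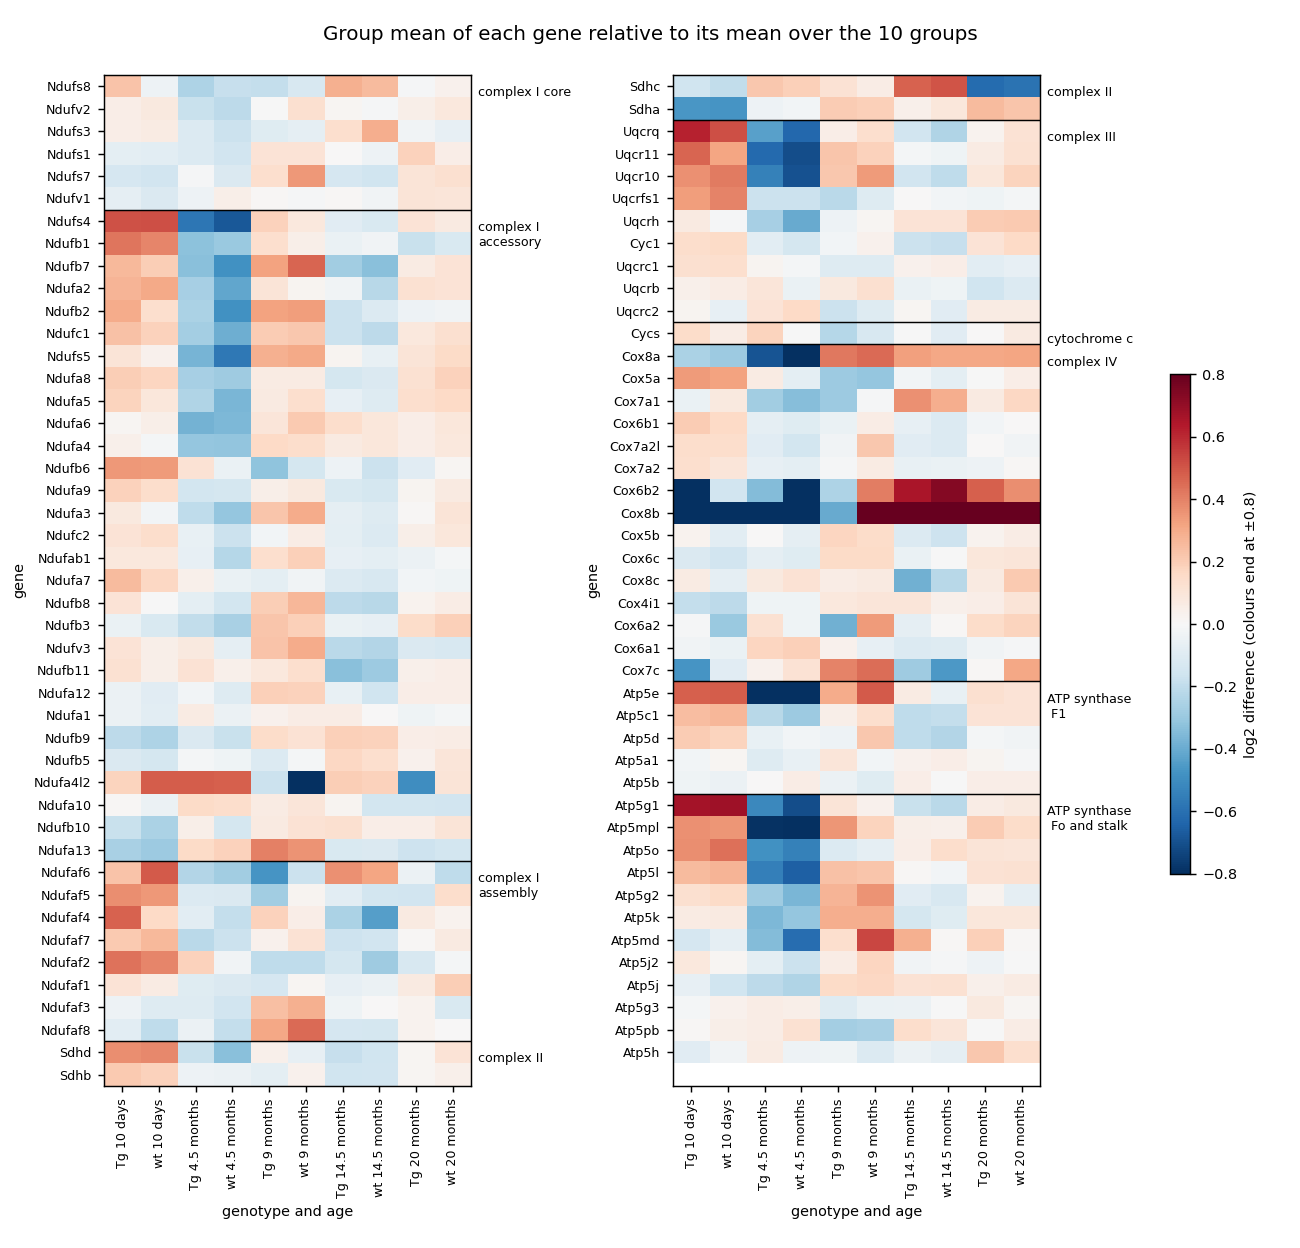
Each row is 1 of the 89 genes, grouped by the role of its product, and each column 1 of the 10 groups, with Tg left of wt at each age. Colour gives the group mean minus the gene's mean over the groups, on the log2 scale, and ends at ±0.8. The columns of 4.5 months are blue for most genes of complexes I and III and of ATP synthase, where 47 of all 89 genes have their lowest mean, while Sdha is lowest at 10 days and Sdhc at 20 months.

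Complex II, which is also the succinate dehydrogenase of the tricarboxylic acid cycle, had 2 of its 4 genes higher and 2 lower in development. Sdha, the flavoprotein that oxidizes succinate, had signals of 12.32, 12.35 and 12.40 at 10 days, 12.73, 12.77 and 12.85 at 4.5 months, 12.93, 13.03 and 13.09 at 9 months, 12.82, 12.89 and 12.93 at 14.5 months, and 12.98, 13.07 and 13.11 at 20 months. The mice of 10 days lay below all others. It was higher by 0.43 ± 0.033 (SE; adjusted p = 1.22e-12) at 4.5 months against 10 days, by 0.67 at 9 months against 10 days, and by 0.27 ± 0.034 (SE; adjusted p = 1.39e-07) in aging, so that its rise after 10 days was seen against both adult ages. The median over its probe sets gave -0.0091 in aging. Sdhb, the iron-sulfur subunit that receives the electrons of Sdha, had -0.24 ± 0.042 in development.

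The membrane anchors of complex II parted at 20 months. Sdhc had signals of 10.97, 11.09 and 11.40 at 10 days, 11.39, 11.52 and 11.61 at 4.5 months, 11.18, 11.41 and 11.54 at 9 months, 11.70, 11.80 and 11.92 at 14.5 months, and 10.61, 10.65 and 10.86 at 20 months. All 6 mice of 20 months lay below all mice of the other ages. The fold change was -1.09 ± 0.070 (SE; adjusted p = 4.36e-13) at 20 against 14.5 months and -0.81 ± 0.070 (SE; adjusted p = 1.41e-10) at 20 against 4.5 months. In the deposited linear signal the mean was 1672 ± 141 at 20 months and 3481 ± 164 at 14.5 months (SD, n = 6 each). Sdhd, the other anchor, was higher by 0.23 ± 0.056 at 20 against 14.5 months and by 0.32 ± 0.056 in aging.

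Of the 15 genes of complex IV, 3 were higher and 5 lower in development (20% and 33.3%, against 31.2% and 35.5% of all genes). Their median log2 fold change was -0.007, where that of all members was -0.23. In aging 6 were higher and 1 lower (40% and 6.7%, against 22.4% and 19.9% of all genes). Cox4i1, the main form of the regulatory subunit IV, had signals of 13.80, 13.88 and 13.97 at 10 days, 14.01, 14.06 and 14.10 at 4.5 months, 14.12, 14.19 and 14.25 at 9 months, 14.07, 14.16 and 14.25 at 14.5 months, and 14.13, 14.17 and 14.23 at 20 months. The mice of 4.5 months lay above all mice of 10 days, with a fold change of 0.17 ± 0.032 (SE; adjusted p = 5.00e-05), and the difference at 9 months against 10 days was 0.29. Without quantile normalization its fold change in development was -0.045 and not called. Cox4i2, the form linked to low oxygen and found mostly in lung, was too dim to be tested.

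Cox5a, a subunit of the matrix side that touches Cox4, had signals of 13.77, 13.87 and 13.96 at 10 days, 13.39, 13.54 and 13.63 at 4.5 months, 13.10, 13.27 and 13.34 at 9 months, 13.40, 13.48 and 13.52 at 14.5 months, and 13.49, 13.57 and 13.62 at 20 months. It ran lower at 4.5 months than at 10 days, at -0.34 ± 0.038 (SE; adjusted p = 6.67e-09), and lower again at 9 than at 4.5 months, at -0.29 ± 0.039, where most members were higher. Without quantile normalization this second step was -0.09 and not called. At 20 against 4.5 months it was not called (0.03, adjusted p = 0.546). All mice of 10 days lay above all mice of every later age.

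Cox8a, the common form of the smallest subunit, had signals of 12.54, 12.59 and 12.77 at 10 days, 11.78, 12.11 and 12.23 at 4.5 months, 13.21, 13.29 and 13.51 at 9 months, 13.12, 13.22 and 13.23 at 14.5 months, and 13.12, 13.18 and 13.31 at 20 months. The mice of 4.5 months lay below all mice of 10 days, and every mouse of 9, 14.5 and 20 months lay above every mouse of both. The fold change was -0.52 ± 0.051 (SE; adjusted p = 3.67e-10) in development, 1.23 ± 0.053 (SE; adjusted p = 2.17e-16) at 9 against 4.5 months and 0.71 at 9 months against 10 days. Cox7c, another small subunit, was higher in development by 0.36 ± 0.155 (adjusted p = 0.0466; 0.0527 with 50 added before log2) and lower at 14.5 against 9 months (-0.79 ± 0.160). Cox6a1, the form of subunit VIa in brain and liver, was higher in development by 0.22 ± 0.033 and lower in aging (-0.20 ± 0.034), while another of its probe sets gave -0.29 and 0.45.

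**Figure D4:**
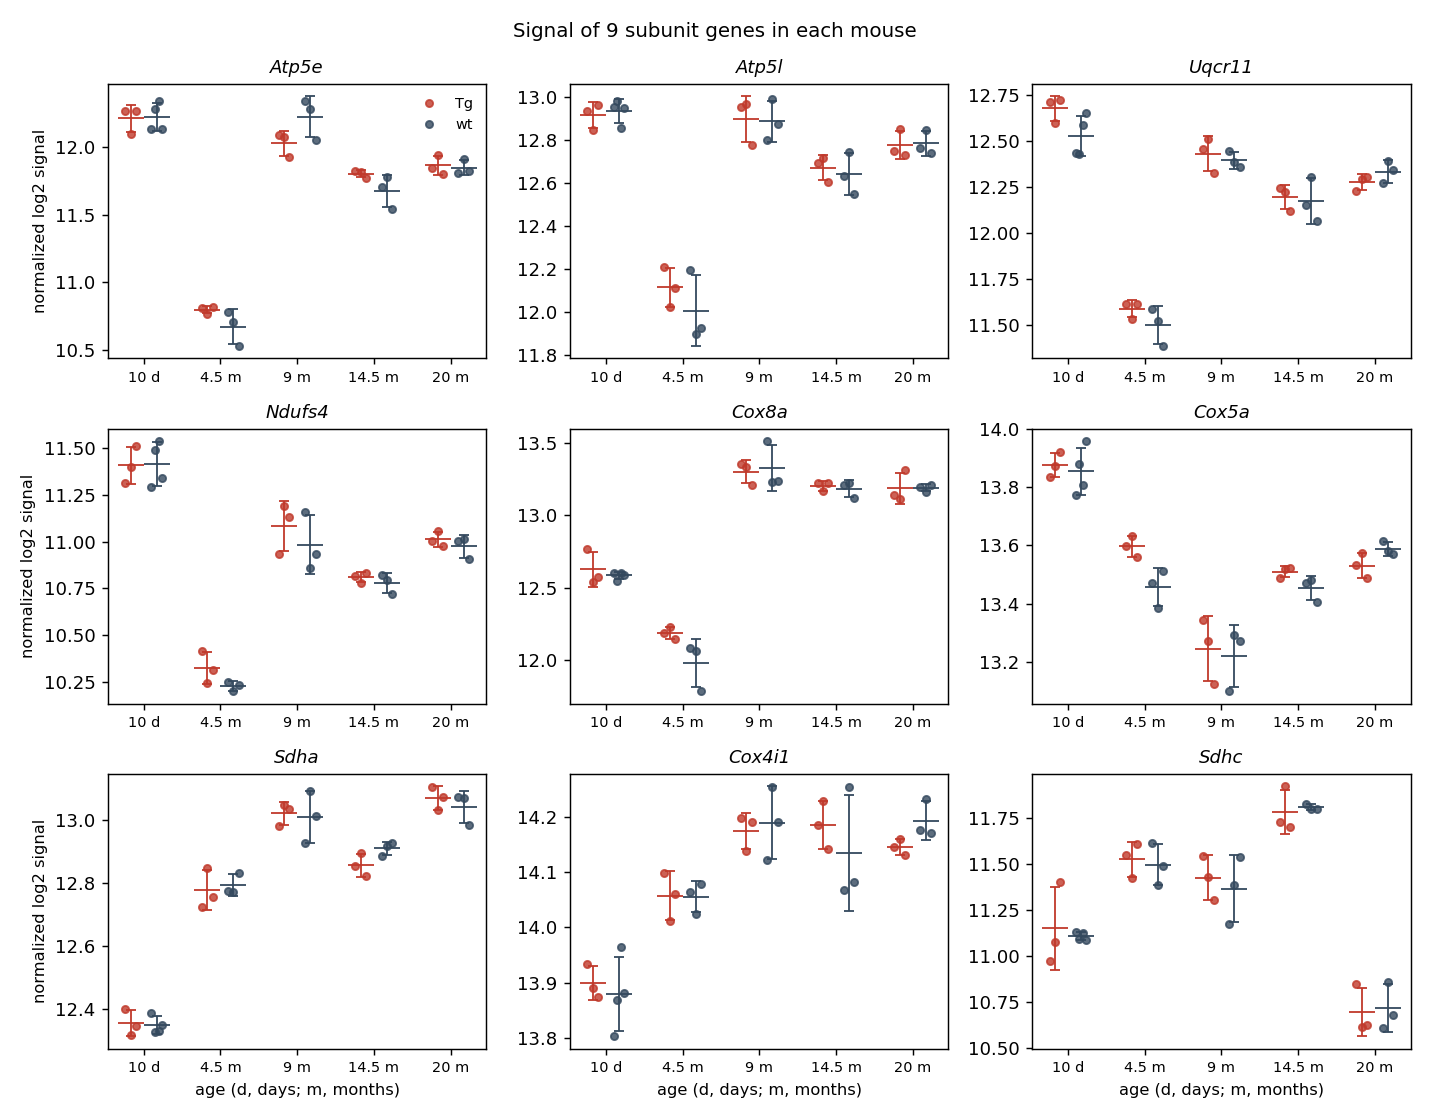
Each point is 1 mouse, with age along the x axis and the normalized log2 signal of the brightest probe set on the y axis. Bars give the group mean and SD, with Tg left of wt. Atp5e, Atp5l, Uqcr11 and Ndufs4 are lowest in the mice of 4.5 months, Cox8a is above 13 from 9 months on, Sdha is lowest at 10 days, and Sdhc is lowest at 20 months, between 10.61 and 10.86.

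Forms of complex IV subunits known from muscle or testis were dim, and their changes depend on how low signals are treated. Cox8b, the muscle form of subunit VIII, was higher in aging by 3.59 ± 0.926 (SE; adjusted p = 0.00329), with signals between 1.94 and 9.12 among all mice, and by 2.19 with 50 added to every signal before log2. Cox6b2, the testis form of subunit VIb, was higher in aging by 1.06 ± 0.332 (SE; adjusted p = 0.0128), and by 0.85 with 50 added. Ndufa4l2, a relative of Ndufa4 induced by low oxygen, was lower at 9 than at 4.5 months (-1.28 ± 0.244, SE; adjusted p = 8.65e-05), with -0.87 where 50 was added. Ndufa4 itself, now placed with complex IV, was higher by 0.46 ± 0.050.

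Shifts between forms of a subunit were tested within mice for 10 pairs of tested genes, in development and in aging, by exact two-sided permutation tests, and 14 of the 20 passed an adjusted p of 0.05. The adjusted p printed for a pair is over 22 shifts, which include the pair with Cox4i2. Cox8c, a testis form, minus Cox8a shifted by 0.63 (exact p = 5.83e-04, adjusted p = 0.00321) in development and by -1.07 (exact p = 0.00216, adjusted p = 0.00529) in aging. Ndufa4l2 minus Ndufa4 shifted by 0.45 (exact p = 0.0181, adjusted p = 0.0284) and by -1.06 (exact p = 0.00216, adjusted p = 0.00529). Cox6a2, the muscle form, minus Cox6a1 shifted by 0.32 (exact p = 0.00866, adjusted p = 0.019) in aging, and Cox7a1 minus Cox7a2 by 0.37 (exact p = 0.0216, adjusted p = 0.0317). Neither of the last pair of shifts passed without quantile normalization (0.21 and 0.17). The summed signal of the muscle markers Acta1, Myh11 and Acta2 ran from 1697 to 4199 at 20 months and from 1859 to 2452 at 4.5 months, and its part in these shifts was not tested. With 9 months in place of 4.5 months, 7 of the 20 shifts passed.

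A gene was shown by its brightest probe set, and 47 genes had several that were tested. In 9 genes probe sets were called in opposite directions in development (Ndufv1, Cox6a1, Ndufs4, Uqcr10, Ndufab1, Atp5c1, Ndufb2, Atp5j2 and Atp5g1), and in 5 genes in aging (Cox6c, Atp5j2, Uqcrb, Cox6a1 and Atp5a1). Atp5g1 had -1.29 at the probe set shown and 0.70 at the other in development. Atp5c1 had -0.52 and 1.0, and Uqcr10 had -1.01 at the probe set shown and 0.32 and 0.60 at others. Ndufb2 had -0.58 and -1.0 at 2 of its probe sets and 1.86 at another, and Ndufab1, the acyl carrier protein of mitochondria, -0.23, 0.13 and 0.89. The direction given for these genes is that of the brightest probe set.

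Promoters of members were read to show what lies upstream of genes that moved together and of those that did not. RefSeq windows of 250 bases before to 50 after the start of transcription (build GRCm38.p6) were found for 75 of the 92 genes. They were searched on both strands for GCGCATGC (NRF1), TCAAGGTCA (ERR), CCGGAAG (GABP), AAGATGGCG (YY1), GGGCGG (Sp1) and CCAAT, the cores of sites named in the literature for nuclear genes of mitochondria, and no match overlapped another in the windows printed. NRF1 cores were in the windows of 12 members (16%, against 3.05% of 27025 genes), GABP cores in 19 (25.3%, against 9.93%), YY1 cores in 7 (9.33%, against 1.64%) and ERR cores in 2 (2.67%, against 0.466%). Sp1 cores were in 36 (48%, against 38.2%) and CCAAT in 33 (44%, against 41.1%). A match is a string of letters and not a measured site.

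Windows are printed for Atp5e, Atp5l, Uqcr11 and Ndufs4, which were lowest at 4.5 months at the probe set shown. The probe sets of Ndufs4 disagreed in direction. Windows are also printed for Cox8a, which exceeded its 10-day level from 9 months on, and for Sdha, which was higher at all later ages. They run 5′ to 3′ on the strand of the gene, with matches to any of these cores, on either strand, in capitals. All lie on the minus strand: Atp5e at chr2:174464052-174464351, Atp5l at chr9:44920693-44920992, Uqcr11 at chr10:80406772-80407071, Ndufs4 at chr13:114388045-114388344, Cox8a at chr19:7217567-7217866 and Sdha at chr13:74350191-74350490.
Atp5e: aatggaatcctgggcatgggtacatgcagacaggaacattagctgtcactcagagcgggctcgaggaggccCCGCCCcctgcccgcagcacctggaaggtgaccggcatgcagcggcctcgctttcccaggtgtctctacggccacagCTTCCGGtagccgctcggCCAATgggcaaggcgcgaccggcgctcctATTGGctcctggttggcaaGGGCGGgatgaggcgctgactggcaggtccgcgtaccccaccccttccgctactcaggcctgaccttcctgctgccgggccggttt
Atp5l: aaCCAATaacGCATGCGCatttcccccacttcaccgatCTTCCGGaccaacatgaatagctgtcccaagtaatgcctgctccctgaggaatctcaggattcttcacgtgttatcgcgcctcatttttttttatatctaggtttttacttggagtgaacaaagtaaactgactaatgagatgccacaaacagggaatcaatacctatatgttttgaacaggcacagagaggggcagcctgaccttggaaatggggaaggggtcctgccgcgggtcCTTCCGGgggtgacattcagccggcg
Uqcr11: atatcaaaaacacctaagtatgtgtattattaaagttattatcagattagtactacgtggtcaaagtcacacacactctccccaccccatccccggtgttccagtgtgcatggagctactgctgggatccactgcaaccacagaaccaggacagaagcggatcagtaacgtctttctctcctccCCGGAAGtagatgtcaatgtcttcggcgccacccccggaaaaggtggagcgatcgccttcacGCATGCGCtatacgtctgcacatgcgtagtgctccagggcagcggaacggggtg
Ndufs4: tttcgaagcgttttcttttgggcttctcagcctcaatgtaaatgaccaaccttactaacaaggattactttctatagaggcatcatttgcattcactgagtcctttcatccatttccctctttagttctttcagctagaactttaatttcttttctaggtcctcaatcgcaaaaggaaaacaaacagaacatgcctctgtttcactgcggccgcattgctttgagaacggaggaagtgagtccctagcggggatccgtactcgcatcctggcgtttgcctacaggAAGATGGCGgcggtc
Cox8a: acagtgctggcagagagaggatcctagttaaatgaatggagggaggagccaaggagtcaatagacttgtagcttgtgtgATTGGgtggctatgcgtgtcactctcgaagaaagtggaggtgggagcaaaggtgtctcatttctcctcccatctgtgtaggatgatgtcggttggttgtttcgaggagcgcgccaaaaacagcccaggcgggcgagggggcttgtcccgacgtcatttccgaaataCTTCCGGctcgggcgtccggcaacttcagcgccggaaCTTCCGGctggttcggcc
Sdha: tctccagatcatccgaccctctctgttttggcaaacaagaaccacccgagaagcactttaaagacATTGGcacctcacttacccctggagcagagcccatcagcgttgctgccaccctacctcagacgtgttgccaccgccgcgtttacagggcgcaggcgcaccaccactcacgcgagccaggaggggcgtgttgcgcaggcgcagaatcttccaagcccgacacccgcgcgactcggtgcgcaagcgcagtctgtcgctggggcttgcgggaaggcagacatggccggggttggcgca

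The Atp5e window holds 2 Sp1 cores, 1 GABP core and 2 CCAAT boxes, and that of Atp5l 1 NRF1 core, 2 GABP cores and 1 CCAAT box. Uqcr11 has 1 GABP and 1 NRF1 core, the second 4 bases before the start, and Ndufs4 has 1 YY1 core that begins 35 bases past the start. Cox8a has 2 GABP cores and 1 CCAAT box, and Sdha 1 CCAAT box. None of the cores was in the windows of all 4 genes that were lowest at 4.5 months at the probe set shown.

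Other genes of the mitochondrion were followed for comparison, from lists by function. Of all genes tested, 31.2% were higher and 35.5% lower in development, and 22.4% higher and 19.9% lower in aging. Proteins of the mitochondrial ribosome, which translate the subunits encoded by mitochondrial DNA, had 5 of 76 higher and 54 lower in development, with a median of -0.40, and 44 higher and 5 lower in aging. Mrpl12 had -1.45 ± 0.075 and Mrpl20 -1.22 ± 0.074 (SE) in development, and Mrps33 0.56 ± 0.049 and Mrpl13 0.59 ± 0.054 in aging. Their mean was lowest at 4.5 months in 57.9%, and the share over all genes tested is given with that of the members above. Enzymes of the tricarboxylic acid cycle and of pyruvate entry had 4 of 16 higher and 9 lower in development and 6 higher and 2 lower in aging, with fumarase (Fh1) at -0.69 ± 0.049 and 0.42 ± 0.051.

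Assembly factors outside the rule had 8 of 36 higher and 17 lower in development and 14 higher and 5 lower in aging. Atpaf1, which assembles F1, was higher in development by 1.52 ± 0.071 (SE), where 3 of the 5 F1 genes were lower. Cox17, the copper chaperone of complex IV, was higher by 0.91 ± 0.060. Carriers and donors beside the chain had 6 of 21 higher and 10 lower in development and 10 higher and 4 lower in aging. Of the regulators of the complexes Atpif1, the inhibitor of ATP synthase, was lower in development (-0.97 ± 0.047). Regulators of mitochondrial biogenesis had 5 of 18 higher and 6 lower in development (27.8% and 33.3%, against 31.2% and 35.5% of all genes). In aging they had 3 higher and 3 lower (16.7% each, against 22.4% and 19.9% of all genes). Their highest changes were those of the coactivator Ppargc1b in development (1.19 ± 0.075) and of Ppargc1a in aging (0.67 ± 0.108). The lowest were -0.60 in development and -0.47 in aging.

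The age changes were found in each genotype. An F-test over the 5 ages called 77 of the 89 members in Tg mice and 82 in wt mice (74% and 75.6% of all genes). In development 6 members were higher and 46 lower in Tg mice (25.7% and 27.5% of all genes), and 8 higher and 49 lower in wt mice (26.3% and 30.1% of all genes). Without wt replicate 1 of 4.5 months the 8 became 5. In aging 30 were higher and 8 lower in Tg mice (12.1% and 12.7% of all genes), and 45 higher and 4 lower in wt mice (15.8% and 15.4% of all genes). Without quantile normalization the Tg mice had 37 higher and 4 lower in aging, and the 8 lower became 5 without Tg replicate 2 or 3 of 4.5 months or Tg replicate 1 or 2 of 20 months.

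Values within each genotype are given for 6 genes, each at its brightest probe set. In development Atp5e had -1.41 ± 0.079 in Tg mice and -1.55 ± 0.074 in wt mice (SE), Uqcr11 -1.09 ± 0.069 in Tg mice and -1.03 ± 0.065 in wt mice, and Ndufs4 -1.09 ± 0.080 in Tg mice and -1.19 ± 0.075 in wt mice. In aging Cox8a had 1.0 ± 0.075 in Tg mice and 1.21 ± 0.075 in wt mice, Sdha 0.29 ± 0.048 in Tg mice and 0.25 ± 0.048 in wt mice, and Sdhc -0.83 ± 0.099 in Tg mice and -0.78 ± 0.099 in wt mice. The difference of the change between the genotypes was called for none of the 89 members in development (0% of all genes) and for none in aging (0.00779% of all genes). At an unadjusted p under 0.05 in limma there were 2 members in development (2.25%, against 6.73% of all genes) and 10 in aging (11.2%, against 6.51%). An interaction F-test over all ages called none (0.0623% of all genes), with 8 members unadjusted (8.99%, against 8.38% of all genes), and the smallest p was that of Atp5d (adjusted p = 0.308). Without wt replicate 2 of 9 months it called 1.

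Between Tg and wt mice of one age, members were called at 9 months only. At 10 days limma called none (0.00779% of all genes), at 4.5 months none (0% of all genes), at 14.5 months none (0% of all genes) and at 20 months none (0.0389% of all genes). At an unadjusted p under 0.05 there were 5 members at 10 days (5.62%, against 5.65% of all genes), 15 at 4.5 months (16.9%, against 6.73%), 3 at 14.5 months (3.37%, against 0.942%) and 2 at 20 months (2.25%, against 4.84%). The members of smallest p were Ndufaf4 at 10 days (0.31 ± 0.110, adjusted p = 0.488), Ndufb2 at 4.5 months (0.23 ± 0.071, adjusted p = 0.595), Ndufa2 at 14.5 months (0.20 ± 0.065, adjusted p = 1) and Ndufaf5 at 20 months (-0.29 ± 0.122, adjusted p = 1). The mean difference over the ages was called for none (0.0156% of all genes), with 3 unadjusted (3.37%, against 8.5% of all genes). An F-test of genotype over the ages called none (0.195% of all genes), with 9 unadjusted (10.1%, against 9.28% of all genes) and Atp5d at an adjusted p of 0.244. Without wt replicate 2 of 9 months that F-test called 1.

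At 9 months 1 member was higher and 4 were lower in Tg than in wt mice, where 0.794% of all genes were higher and 2.2% lower. At an unadjusted p under 0.05 in limma there were 12 members, 13.5%, a smaller share than the 18.1% of all genes. The median log2 fold change was -0.04 over the members and -0.05 over all genes. Atp5d was at 13.10, 13.18 and 13.04 in Tg mice and at 13.40, 13.34 and 13.35 in wt mice, with a fold change of -0.26 ± 0.057 (SE; adjusted p = 0.0124). Ndufs7, an iron-sulfur subunit of complex I, was at 11.94, 11.92 and 12.05 in Tg mice and 12.22, 12.18 and 12.15 in wt mice, with -0.22 ± 0.061 (SE; adjusted p = 0.0447). In both genes all Tg mice lay below all wt mice. Cox7a2l, a relative of Cox7a2, was at 11.79, 11.97 and 11.79 in Tg mice and 12.12, 12.12 and 12.02 in wt mice. Its fold change was -0.24 ± 0.068 (SE, adjusted p = 0.0468). Cox6a2 was at 7.5, 8.0 and 7.20 in Tg mice and 8.06, 8.27 and 8.54 in wt mice, with -0.72 ± 0.192 (SE; adjusted p = 0.0339). The genotypes did not overlap in these 2 genes either. Ndufa4l2, the gene that was higher, was at 7.12, 6.91 and 7.17 in Tg mice and 4.96, 7.04 and 5.41 in wt mice, with 1.26 ± 0.346 (SE; adjusted p = 0.0398). One wt mouse lay among the Tg mice, and with 50 added before log2 the fold change was 0.73 (adjusted p = 0.0601).

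These calls at 9 months did not hold under every choice. None was made when the 6 arrays of that age were fitted alone, and none at a fold of 1.3 with an adjusted p of 0.01. Cox6a2 and Atp5d, 2 calls, remained without the filter on low signals or without the trend, and Cox6a2 was not called without quantile normalization (-0.57, adjusted p = 0.0819). Atp5d alone remained without Tg replicate 1 of 9 months, and Ndufs7 alone without Tg replicate 3. Without wt replicate 1 Cox6a2 and Atp5d remained, and without wt replicate 2 Ndufa4l2 and Atp5d. Cox6a2, Ndufa4l2 and Atp5d remained, 3 calls, without Tg replicate 3 of 4.5 months, Tg replicate 1 or 3 or wt replicate 1 of 14.5 months, or replicate 2 of either genotype at 20 months. Markers also differed between the genotypes at 9 months. All 5 hippocampus markers had an unadjusted p under 0.05 in limma, with fold changes from -0.26 to 0.77, and 1 was called higher. The choroid plexus markers had fold changes from -1.21 to -0.28, and 0 of 5 had such a p. The muscle markers summed to 916 to 1514 in Tg mice and 1031 to 3279 in wt mice of 9 months. Those of endothelium and pericytes, which express Ndufa4l2 in brain, summed to 4455 to 6088 in Tg mice and 4973 to 6013 in wt mice. The log2 ratio of the 3′ to the 5′ control probe set was also compared between the genotypes at 9 months, with 3 mice each. That of beta-actin averaged 0.735 in Tg and 0.876 in wt mice (exact permutation test, two-sided p = 0.1, adjusted p = 0.214). With 3 against 3 mice, 0.1 is the smallest p this test can give. That of Gapdh averaged -0.345 in Tg and -0.284 in wt mice (exact permutation test, two-sided p = 0.7, adjusted p = 0.808). The part of the markers and ratios in the differences was not tested. A difference between Tg and wt mice in the change at 9 against 4.5 months was called for none of the members (limma, 0.0467% of all genes), with 25 members at an unadjusted p under 0.05 (28.1%, against 10.1% of all genes), and the smallest adjusted p was 0.132 for Ndufs7.

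**Figure D5:**
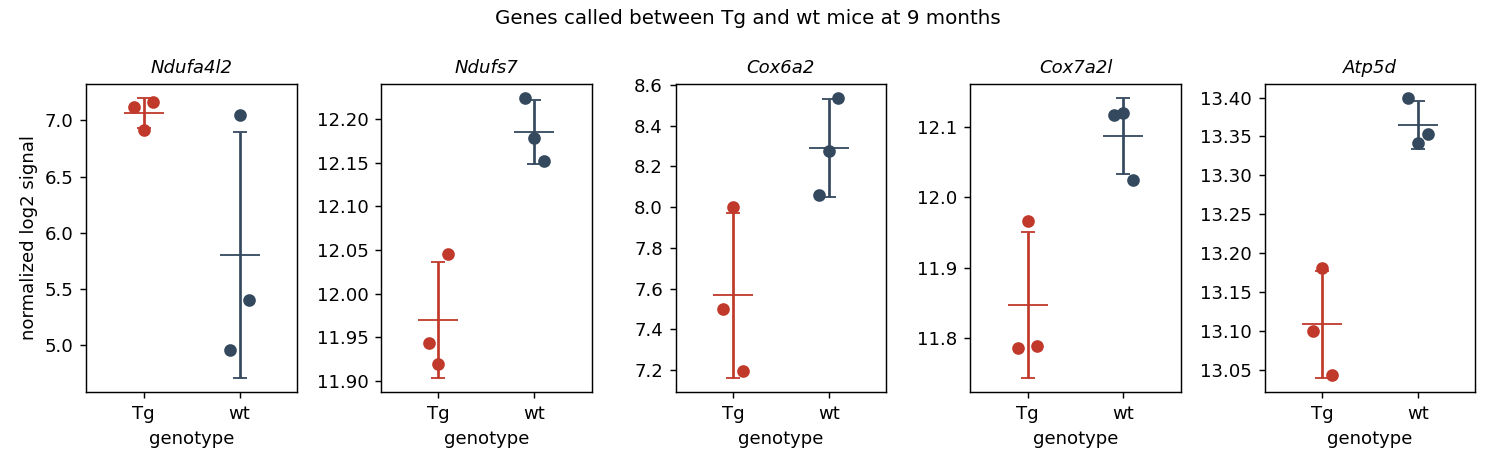
Each point is 1 mouse of 9 months, Tg left and wt right, with the normalized log2 signal on the y axis, and bars give the mean and SD (n = 3 each). The y axes differ between genes. Tg mice lie below wt mice in Ndufs7, Cox6a2, Cox7a2l and Atp5d, and the genotypes overlap in Ndufa4l2.

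The promoter window of Ndufs7 is given as that of a gene called between the genotypes, at chr10:80249199-80249498 on the plus strand. Its capitals mark 1 YY1 core, which begins 24 bases past the start of transcription.
Ndufs7: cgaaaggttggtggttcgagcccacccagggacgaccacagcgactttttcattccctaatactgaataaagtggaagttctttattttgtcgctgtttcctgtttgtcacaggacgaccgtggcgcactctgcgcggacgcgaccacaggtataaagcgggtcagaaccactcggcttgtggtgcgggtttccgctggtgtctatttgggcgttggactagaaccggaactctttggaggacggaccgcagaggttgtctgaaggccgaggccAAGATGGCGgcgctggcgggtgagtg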

How the data were processed

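Hippocampal RNA of 31 mice was measured on 31 arrays. Per the labels, the deposited intensity values were made with MAS5, whose version is not given in the sources used here. They are linear, with a trimmed mean of 500 on each array, and carry no detection calls. The study's methods describe RMA and give 3 mice in each group, while the labels give 4 wt mice at 10 days. RMA, SAM, Cyber-T and EDGE were not run. Replicates are separate mice.

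The intensities were turned to log2 and quantile normalized. A probe set was tested where it exceeded the array median on at least 3 arrays, which kept 26877, and a gene was shown by its brightest one. Limma 3.58.1 in R 4.3.3 fitted 10 group means with a shared spread (21 residual degrees of freedom), moderated with a trend and robustly, and the Benjamini-Hochberg adjustment ran over all of those probe sets. Array ratios and pairs of forms were compared by exact permutation tests, and the fit was tested on simulated data. Genes were named by a rule on their role, p and disagreeing probe sets. The members and lists were chosen with earlier results of these data known. Protein sequences were not used here. Alternatives were values without quantile normalization, 50 added before log2, other filters, no trend, a replicate block, each mouse left out, only the arrays compared, the threshold of the study's methods, all probe sets, and other ages in place of 4.5 or 9 months.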

Additional observations from a re-analysis of the deposited data

Results flagged for a closer look

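In wt mice of 10 days, the only group with 4 mice, Uqcrh (the hinge protein of complex III) was at 13.00, 13.05, 13.01 and 13.01 on the log2 scale. The gap of replicate 2 to the nearest of the others was 0.850 of the range, above the critical value of 0.829. It was the only one of 89 genes so marked, and chance marks about 1 in 20 groups.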

How the results depend on the processing

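The number of mice limits every value, and low signals have no detection call. Counts below are members higher and lower. Without quantile normalization they were 6 higher in development (3 in Tg, 4 in wt mice), 5 lower at 9 against 4.5 months, 4 higher at 14.5 against 9 months, 61 higher and 3 lower at 20 against 14.5 months, and 4 lower in Tg and 2 lower in wt mice in aging. At a fold of 1.3 and an adjusted p of 0.01 they were 3 and 28 in development, 26 and 1 at 9 against 4.5 months, 5 and 15 at 14.5 against 9 months, 3 and 2 at 20 against 14.5 months, and 22 and 1 in aging. In development they were then 2 and 28 in Tg mice and 3 and 31 in wt mice, and in aging 17 and 1 in Tg mice and 25 and 1 in wt mice. With all 164 tested probe sets they were 27 and 94 in development, 101 and 19 at 9 against 4.5 months, 25 and 88 at 14.5 against 9 months, 66 and 11 at 20 against 14.5 months, and 86 and 15 in aging. In Tg mice they were 19 and 85 in development and 60 and 13 in aging, and in wt mice 21 and 89 and 80 and 8. The F-test over ages then called 143 in Tg and 147 in wt mice. These rises follow from counting more features. With 9 in place of 4.5 months the counts were 31 and 31 in development and 14 and 21 in aging, and 7 shifts between forms passed. In a fit of only the arrays compared, 8 members were lower at 20 against 14.5 months. The cause of these shifts was not tested.

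At 9 months, Tg against wt mice had 2 calls without the filter, 2 without the trend, 0 with only the arrays compared, 0 at a fold of 1.3 and an adjusted p of 0.01, and 2 with the replicate block. The replicate numbers did not pair Tg and wt mice: over 15 pairs with the same number the correlation of their deviations ran from -0.112 to 0.0549, and the block moved no other count by over 1.5 times.

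Leaving out 1 mouse at a time gave 5 to 8 members higher in development in wt mice, 5 to 9 lower in aging in Tg mice, 1 to 5 called at 9 months, 0 to 1 called by the F-tests of genotype and of interaction, and 12 to 15 shifts between forms with the pair of Cox4i2 counted (15 of 22 with all mice) or 12 to 14 without it. The other counts stayed within 1.5 times in each of the 31 settings.

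Directions of named genes turned in 2 settings. Without quantile normalization the log2 fold change in development was -0.045 for Cox4i1, -0.18 for Cox6c, -0.16 for Atp5g3 and Atp5pb, -0.23 for Ndufa12 and -0.040 for Ndufv1. With a gene shown by the median of all its tested probe sets it was -0.033 for Cox6a1, -0.12 for Atp5pb, 0.50 for Ndufs4, 0.24 for Atp5c1, 0.28 for Uqcr10, -0.48 for Ndufaf8 and 0.13 for Ndufab1 in development. In aging it was 0.12 for Cox6a1, -0.12 for Cox6c, -0.58 for Cox8c, -0.047 for Ndufs4, 0.62 for Ndufa7, -0.0091 for Sdha, 0.30 for Cycs and 0.28 for Uqcrb.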
